A study of Homo sapiens with 6 samples.

Results

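The genes described here are CCL2, CCL20, CXCL8, IRAK2, IRF1 and MICB, 6 of the 14884 genes named by array features with 1 gene symbol. The cells were A549, a line derived from a human lung adenocarcinoma. The genes belong to chemokine and inflammatory signalling and were chosen by their measured array levels, those at 41.5 °C set against those at 37 °C and 44 °C. Their heat differences are therefore given as descriptions without a test, and only the comparison with and without X-rays, which did not enter the choice, is tested for them. The platform annotation gives 12 array features with 1 gene symbol for the 6 genes, 7 of them for MICB and 1 for each of the others.

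The study heated A549 cells, irradiated them or did both, with 1 array in each of 6 groups. After 24 h of growth at 37 °C, the heated groups (labelled HT 41.5 and HT 44) spent 1 h at 41.5 °C or 44 °C and then 3 h at 37 °C, the irradiated group (IR) received 3 Gy of X-rays and then 3 h at 37 °C, and the combined groups (IR_HT 41.5 and IR_HT 44) were irradiated directly after the heat. For the combined groups and the untreated control the labels give no later time at 37 °C, so a difference from the control, and any difference between arrays with and without X-rays at 41.5 °C or 44 °C, may include time in culture. All values are levels on the log2 scale or differences between such levels, and since a level depends on the probes of a feature, levels of different genes are not set against each other. Where a feature's place among all genes is given, it says only how bright the feature was. Arrays of total RNA do not tell fewer expressing cells from less RNA per cell.

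Chemokines are small secreted proteins that draw leukocytes along a concentration gradient by binding receptors coupled to G proteins. Their genes are induced in epithelial cells when interleukin-1 or Toll-like receptors signal through adaptor proteins and IRAK kinases to the transcription factor NF-kappaB. IRF1 is a transcription factor of the interferon response that also lies downstream of NF-kappaB, and MICB is a stress-induced surface protein that is recognised by the activating receptor NKG2D of natural killer cells and T cells. Lung epithelium is a known source of CCL2, CCL20 and CXCL8 in inflammation.

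RefSeq promoter windows of assembly GRCh38.p14, from 250 bases before to 50 bases after the gene start, were held for 5 of the 6 genes: CCL20, CXCL8, IRAK2, IRF1 and MICB. The stretches below are shown because they carry letters of the elements by which these genes are usually described, an NF-kappaB element in the chemokine and IRF1 promoters and a pair of heat shock units in that of MICB. Each is written 5′ to 3′ on the strand of the gene, and capitals mark a match. In CCL20 (chr2:227813750-227813830, plus strand) they mark a match of the loose NF-kappaB form (GGG, any 5 bases, CC) and the TATA box letters TATAAA. In CXCL8 (chr4:73740420-73740498, plus strand) they mark the AP-1 letters TGANTCA and the stricter NF-kappaB letters GGAATTTCC. In IRF1 (chr5:132490802-132490909, minus strand) they mark the gamma-activated site letters TTCNNNGAA and 1 match of the loose NF-kappaB form. In MICB (chr6:31497994-31498025, plus strand) they mark the heat shock letters GAANNTTC.
CCL20: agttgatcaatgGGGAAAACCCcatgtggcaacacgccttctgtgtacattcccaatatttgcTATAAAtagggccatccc
CXCL8: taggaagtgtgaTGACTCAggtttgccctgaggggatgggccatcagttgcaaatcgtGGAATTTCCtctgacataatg
IRF1: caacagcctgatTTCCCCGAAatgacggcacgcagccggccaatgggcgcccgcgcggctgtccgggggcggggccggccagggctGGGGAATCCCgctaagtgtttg
MICB: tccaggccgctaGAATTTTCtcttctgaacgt

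All motifs were searched on both strands, and their matches may overlap, as those of the loose NF-kappaB form around the marked one in CCL20 do. Of its matches, those are shown that read on both strands with at least 3 of their middle 4 bases A or T, a choice made after the sequences were seen. The loose form was present in all 5 windows, but also in 58.7% of the 35116 promoter windows of the assembly. GGAATTTCC was present in 0.461% of all windows, TGANTCA in 7.71%, GAANNTTC in 6.77%, TTCNNNGAA in 7.66% and TATAAA in 11.5%. A match is a stretch of letters and not a measured site.

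In all 6 genes both 41.5 °C arrays lay above both 37 °C arrays, as they did in 22.8% of all 14884 genes, and in all but IRF1 they lay above both 44 °C arrays, as they did in 30.4% of all genes. These are the contrasts by which the genes were chosen. The genes differed among themselves at 44 °C. The arrays at 44 °C lay above those at 37 °C for IRAK2, IRF1 and MICB (19.9% of all genes) and below them for CCL2 and CCL20 (31.2% of all genes), and the groups overlapped for CXCL8. Expressed as a percentage of the difference between 41.5 °C and 37 °C, the difference between 44 °C and 37 °C was 85.3% for IRF1, 55.9% for MICB and 38.3% for IRAK2, against -7.55% for CXCL8, -11.0% for CCL2 and -48.4% for CCL20.

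**Figure D1:**
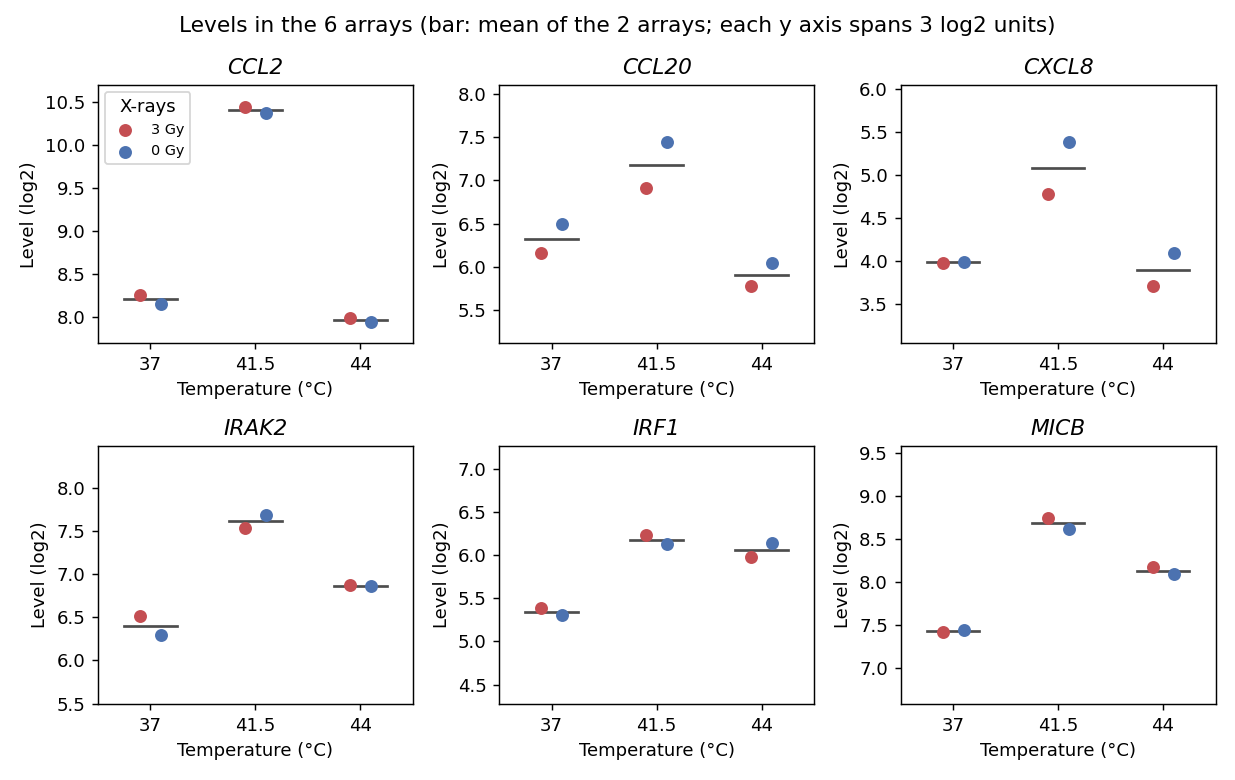
Levels (log2) of the 6 genes in the 6 arrays by temperature; red points are arrays with 3 Gy and blue points arrays without X-rays, the bar is the mean of the 2 arrays, and every vertical axis spans 3 log2 units. CCL2 stands at 10.45 and 10.37 at 41.5 °C and near 8 at the other temperatures, while IRF1 stands near 6 at both 41.5 °C and 44 °C.

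CCL2, the chemokine that attracts monocytes through the receptor CCR2, had levels of 8.26 with X-rays and 8.15 without at 37 °C, 10.45 and 10.37 at 41.5 °C, and 7.99 and 7.95 at 44 °C. Only the 41.5 °C arrays were high, and those at 44 °C were slightly below those at 37 °C without overlap. The level at 41.5 °C was 4.59-fold that at 37 °C (log2 difference 2.20 ± 0.07, moderated SE, 2 arrays per temperature) and 5.42-fold that at 44 °C (2.44 ± 0.07). Standard errors here and below draw on genes of similar level as well as on the gene's own spread. The difference from 37 °C was 2.18 between the arrays with X-rays and 2.21 between those without. The arrays at 44 °C differed from those at 37 °C by -0.24 ± 0.07.

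CCL20, which attracts dendritic cells and T cells through CCR6, had levels of 6.15 with X-rays and 6.49 without at 37 °C, 6.92 and 7.44 at 41.5 °C, and 5.77 and 6.04 at 44 °C. The order of the temperatures was the same as for CCL2, with no overlap between neighbours, although the gap between 44 °C and 37 °C was smaller than the spread of either group. At 41.5 °C the level was 1.81-fold that at 37 °C (0.86 ± 0.11) and 2.42-fold that at 44 °C (1.27 ± 0.11). At 44 °C it differed from 37 °C by -0.42 ± 0.11.

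CXCL8, the neutrophil chemokine known as interleukin-8, had levels of 3.98 with X-rays and 3.99 without at 37 °C, 4.77 and 5.38 at 41.5 °C, and 3.71 and 4.09 at 44 °C. The arrays at 44 °C lay on both sides of those at 37 °C, so the lower part of the order was not resolved. The level at 41.5 °C was 2.13-fold that at 37 °C (1.09 ± 0.18) and 2.25-fold that at 44 °C (1.17 ± 0.18), and that at 44 °C differed from 37 °C by -0.08 ± 0.18. The CXCL8 feature was dim, with a mean level above that of 29.1% of all features used, and its standard error was the largest of the 6. Its difference between 41.5 °C and 37 °C was 0.80 between the arrays with X-rays and 1.39 between those without.

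IRAK2, a kinase-like adaptor below the interleukin-1 and Toll-like receptors, had levels of 6.51 with X-rays and 6.30 without at 37 °C, 7.54 and 7.69 at 41.5 °C, and 6.87 and 6.86 at 44 °C. The 3 temperatures did not overlap, and 44 °C lay between the others. The level at 41.5 °C was 2.31-fold that at 37 °C (1.21 ± 0.11) and 1.68-fold that at 44 °C (0.75 ± 0.11), and that at 44 °C was 1.38-fold that at 37 °C (0.46 ± 0.11).

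IRF1 had levels of 5.39 with X-rays and 5.30 without at 37 °C, 6.24 and 6.13 at 41.5 °C, and 5.98 and 6.14 at 44 °C. Both heated groups were above 37 °C and overlapped each other, so their order was not resolved. The level was 1.79-fold that at 37 °C after 41.5 °C (0.84 ± 0.12) and 1.64-fold after 44 °C (0.71 ± 0.12), and the 2 heated groups differed by 0.12 ± 0.12.

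MICB had levels of 7.42 with X-rays and 7.45 without at 37 °C, 8.75 and 8.62 at 41.5 °C, and 8.17 and 8.09 at 44 °C. As for IRAK2, the 3 temperatures did not overlap and 44 °C lay between the others. The level at 41.5 °C was 2.38-fold that at 37 °C (1.25 ± 0.08) and 1.47-fold that at 44 °C (0.55 ± 0.08), and that at 44 °C was 1.62-fold that at 37 °C (0.70 ± 0.08). These values come from the brightest of the 7 MICB features. Over the 7 features, of which 6 hold distinct values because a pair is identical, the difference between 41.5 °C and 37 °C was 1.11 to 1.25, that between 41.5 °C and 44 °C was 0.53 to 0.64 and that between 44 °C and 37 °C was 0.54 to 0.70. The features may share probes and are not replicates, and MICB and its paralog MICA are similar enough in sequence that their signals may not be fully separate.

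**Figure D2:**
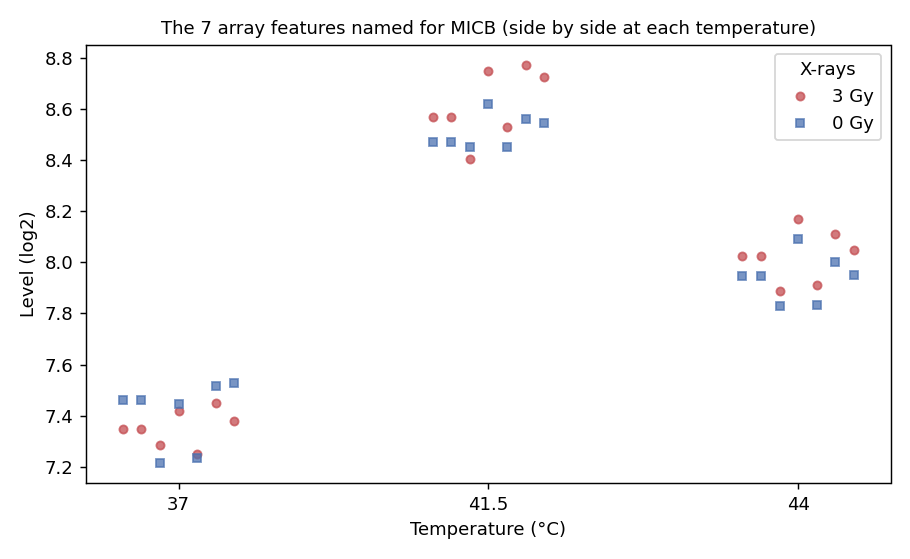
Levels (log2) of the 7 array features named for MICB, drawn side by side at each temperature; red circles are arrays with 3 Gy and blue squares arrays without X-rays. Features at 37 °C lie between 7.21 and 7.53, at 41.5 °C between 8.40 and 8.77 and at 44 °C between 7.83 and 8.17, with no overlap.

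**Figure D3:**
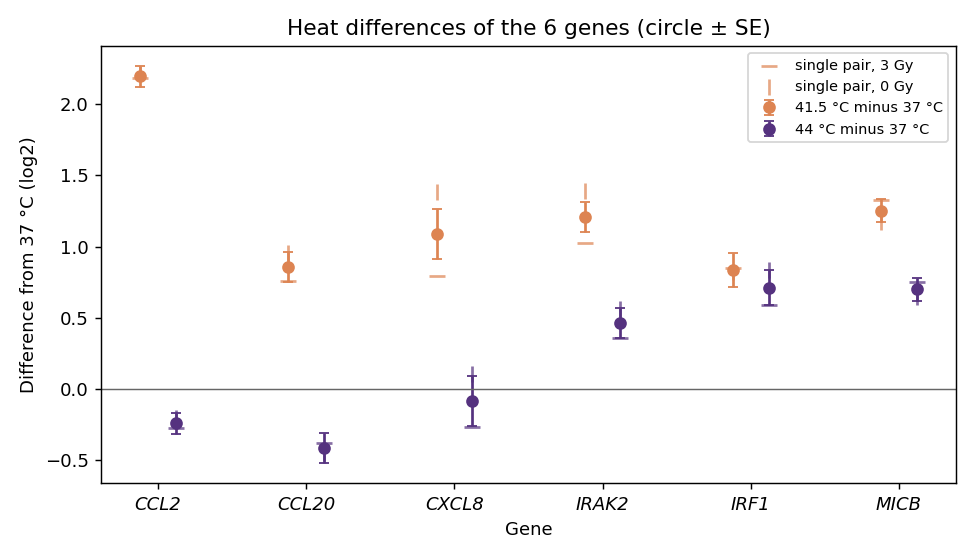
Differences (log2) of 41.5 °C from 37 °C (orange) and of 44 °C from 37 °C (purple) for the 6 genes; circles are model estimates with their moderated SE (2 arrays at each temperature), horizontal dashes the arrays with 3 Gy and vertical dashes those without X-rays. All 6 orange circles lie between 0.84 and 2.20, while the purple ones lie between -0.42 for CCL20 and 0.71 for IRF1.

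Whether X-rays changed these genes was tested in an additive model of temperature and radiation, with 3 irradiated and 3 non-irradiated arrays and p-values adjusted over all genes. In limma 0 of the 14884 genes were called for radiation (0% of all genes), with 733 (4.92%) at an unadjusted p under 0.05, and 0 were called as well with moderation that ignored the intensity trend. Without either of the 44 °C arrays 85 genes were called. None of the 6 genes passed. CCL20 was lower with X-rays at each temperature, by -0.34 at 37 °C, -0.53 at 41.5 °C and -0.27 at 44 °C, as were 11.4% of all genes. Its mean difference was -0.38 ± 0.09 (95% interval -0.57 to -0.18, unadjusted p = 0.00145, adjusted p = 0.609).

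CXCL8 differed by -0.33 ± 0.14 with X-rays (95% interval -0.65 to -0.01, adjusted p = 0.997). The single pairs gave -0.014 at 37 °C, -0.60 at 41.5 °C and -0.38 at 44 °C. The time at 37 °C after the heat, unknown for the combined arrays, cannot be told apart from X-rays in the pairs at 41.5 °C and 44 °C. The other differences were 0.08 ± 0.06 for CCL2 (95% interval -0.06 to 0.21), 0.06 ± 0.07 for MICB (-0.09 to 0.21), 0.03 ± 0.09 for IRAK2 (-0.17 to 0.22) and 0.01 ± 0.10 for IRF1 (-0.21 to 0.23). The adjusted p was 0.997 for CCL2, MICB and IRAK2 and 0.999 for IRF1. IRAK2 was higher with X-rays at 37 °C (0.22) and lower at 41.5 °C (-0.15), and IRF1 was lower with X-rays only at 44 °C (-0.16).

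The departure from additivity, which is the combined array minus heat alone minus X-rays alone plus the control, rests on 4 single arrays, may include the unknown time after treatment and has no test. It was most negative for CXCL8, at -0.59 for 41.5 °C and -0.37 for 44 °C. IRAK2 had -0.37 and -0.20. CCL2 was close to additive, at -0.03 and -0.07, and MICB had the positive values 0.16 and 0.11. CCL20 had -0.19 and 0.07, and IRF1 had 0.03 and -0.24.

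Likeness between genes was measured as the root mean square difference of their levels over the 6 arrays after each gene was centred on its mean, so a small value means a similar profile and size. Among the 6 genes, the closest pairs were IRAK2 with MICB (0.15) and CCL20 with CXCL8 (0.17), and the most distant was CCL2 with IRF1 (0.95). The profile closest to that of IRF1 among all genes was that of HSPB1, a small heat shock protein (0.09), followed by MRPL18, a mitochondrial ribosomal protein (0.11), and ZNF563 (0.12). IRAK2 was closest to TIPARP, an ADP-ribosyltransferase (0.15), MICB and TRIML2 (0.16), and MICB to THBS1, the matrix protein thrombospondin (0.14), IRAK2 and TRIML2 (0.15). CCL20 was closest to KRTAP10-4, OSGIN1, a target of the antioxidant factor NRF2, and MIR601 (each 0.16), and CXCL8 to CCL20, KRTAP10-4 (0.18) and MAP3K14 (0.20). For CCL2, which varied most, the nearest were farther off: NAV3 (0.43), FJX1 (0.46) and BCL2A1, an anti-apoptotic NF-kappaB target (0.47). A difference in size alone raises this measure. NAV3 had 1.35 for 41.5 °C against 37 °C and 1.58 for 41.5 °C against 44 °C, where CCL2 had 2.20 and 2.44. These distances describe 6 arrays and say nothing of shared control.

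The other genes of these pathways were taken from 10 lists of 224 genes, of which 155 were measured, 149 of them besides the 6. For these, calls come from the same fit at an adjusted p under 0.05 over all genes. Between 41.5 °C and 37 °C, 8 of the 149 rose and 1 fell (6.04%), against 3.29% of all genes (2.18% higher and 1.1% lower), and their median difference was 0.05 against a median of -0.00388 over all genes. Between 41.5 °C and 44 °C, 15 were higher and 8 lower at 41.5 °C (15.4%), against 12.1% of all genes (7.23% higher and 4.9% lower). Between 44 °C and 37 °C, 8 rose and 2 fell (6.71%), against 6.11% (3.57% higher and 2.54% lower). For radiation 0 were called.

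Of 8 measured NF-kappaB subunits and kinases, 3 rose and 0 fell at 41.5 °C against 37 °C, with a median of 0.33. MAP3K14, the kinase NIK that starts the non-canonical branch, had levels of 8.16 with X-rays and 8.33 without at 41.5 °C, against 7.13 and 7.43 at 37 °C. It rose by 0.96 ± 0.09 (adjusted p = 6.52e-04), and its level at 44 °C, 7.27 and 7.33, lay within the 37 °C range. NFKB2, the subunit that this branch processes, had 7.45 and 7.32 at 41.5 °C, against 6.53 and 6.63 at 37 °C, a rise of 0.80 ± 0.10 (adjusted p = 0.00403). NFKB1, the precursor of the p50 subunit, rose by 0.59 ± 0.09 (adjusted p = 0.00956). Against 44 °C the same 3 genes were higher at 41.5 °C by 0.94, 0.89 and 0.76, and RELA, the transactivating subunit, by 0.44 ± 0.10 (adjusted p = 0.018), whereas CHUK, the kinase IKK-alpha, was lower at 41.5 °C with a difference of -0.36 ± 0.09 (adjusted p = 0.0291). At 44 °C against 37 °C 1 of the 8 was called, CHUK, which rose by 0.36 (adjusted p = 0.0469). TBK1, a kinase of the interferon branch, had a difference of -0.06 between 41.5 °C and 37 °C and was not called.

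Of 6 measured NF-kappaB inhibitors and feedback genes, from a list of 13, 0 were called between 41.5 °C and 37 °C (median 0.18, 2 at an unadjusted p under 0.05). The rest of that list, more than was measured, could not be assessed. CYLD, a deubiquitinase that restrains NF-kappaB, rose by 0.70 ± 0.11 at 44 °C against 37 °C (adjusted p = 0.00453) and had a difference of -0.49 between 41.5 °C and 44 °C (adjusted p = 0.0194). TNIP1, a partner of the inhibitor A20, and BCL3, a nuclear member of the I-kappaB family, exceeded their 44 °C level at 41.5 °C with differences of 0.52 and 0.41 (adjusted p = 0.00999 and 0.0301). ZC3H12A, a nuclease that degrades inflammatory mRNAs, had a difference of 0.36 between 41.5 °C and 37 °C (adjusted p = 0.0717), and TNIP2 and TNIP3 had 0.09 and 0.03.

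Of 11 other inflammatory NF-kappaB targets measured, from a list of 21, 2 rose and 0 fell at 41.5 °C against 37 °C (median 0.17). ICAM1, the adhesion molecule that leukocyte integrins bind, had levels of 5.999 with X-rays and 5.90 without at 41.5 °C, against 5.36 and 5.20 at 37 °C, and rose by 0.67 ± 0.13 (adjusted p = 0.0207). At 44 °C it stood at 5.26 and 5.38, overlapping the 37 °C arrays. IL11, a cytokine of the interleukin-6 family, rose by 0.87 ± 0.10 (adjusted p = 0.00183) and also at 44 °C, by 0.58 (adjusted p = 0.00573). For 41.5 °C against 44 °C, CSF1, the macrophage growth factor, was higher by 0.65 (adjusted p = 0.00865) and LIF by 0.44 (adjusted p = 0.0412), and PTGS2, the inducible prostaglandin synthase, had a difference of -0.46 there (adjusted p = 0.026). CSF3, the granulocyte growth factor, had a difference of -0.05 between 41.5 °C and 37 °C and was not called.

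**Figure D4:**
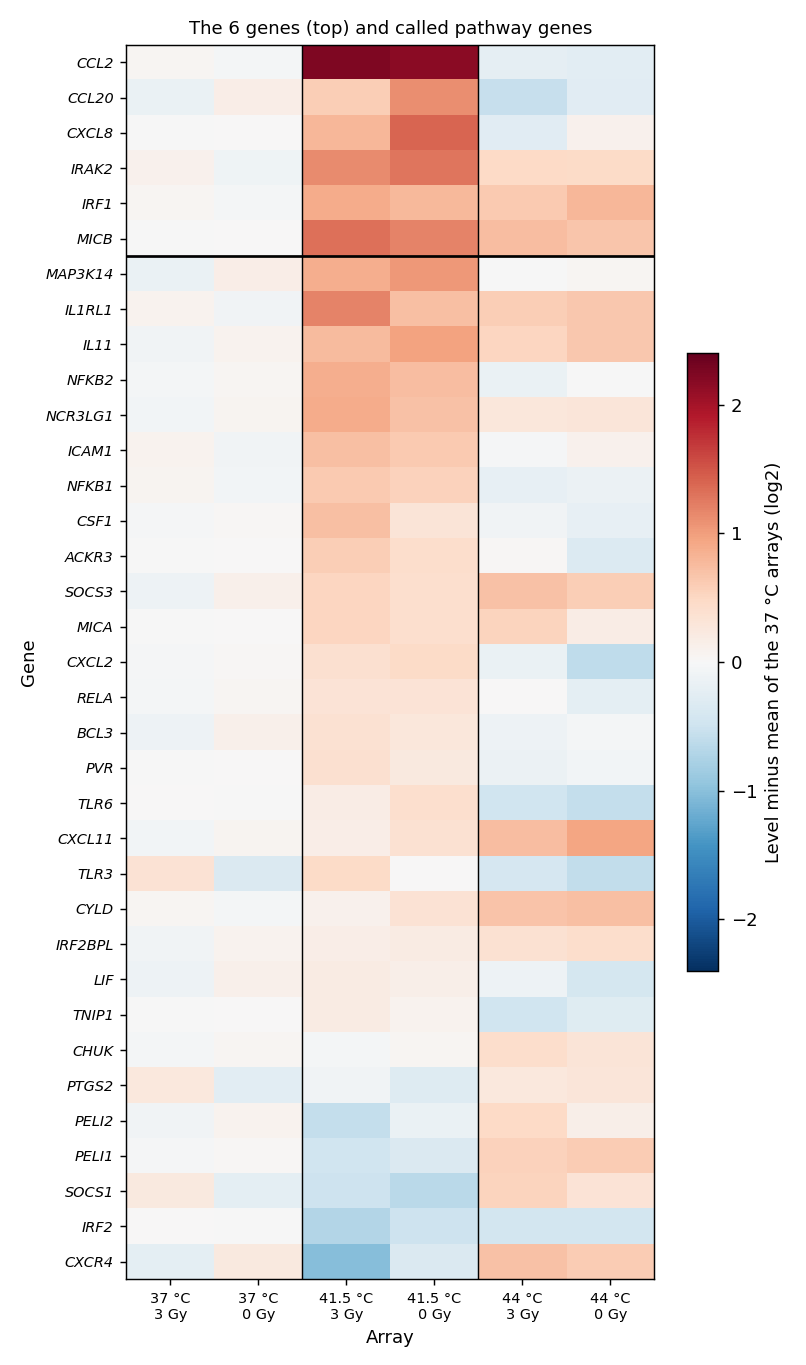
Level of each gene (rows) in each array (columns) minus its mean in the 37 °C arrays (log2, colour scale), with the 6 genes above the line and below it the 29 pathway genes called in at least 1 heat comparison, in order of their difference between 41.5 °C and 37 °C. MAP3K14, NFKB2, NFKB1 and ICAM1 are red at 41.5 °C and pale at 44 °C, and CXCR4, SOCS1 and PELI1 are blue at 41.5 °C and red at 44 °C.

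Of the 20 other CC chemokines measured 0 were called by limma in any heat comparison (median 0.03 for 41.5 °C against 37 °C), with 1, 0 and 3 at an unadjusted p under 0.05 for 41.5 °C against 37 °C, 41.5 °C against 44 °C and 44 °C against 37 °C. Among them were CCL7 (0.46 ± 0.25), CCL24 (0.38), CCL22 (-0.22) and CCL19 (-0.41). Of the 18 other CXC and related chemokines 0 were called between 41.5 °C and 37 °C (median 0.06, 2 at an unadjusted p under 0.05), where CXCL13 had 0.37, PF4 -0.27 and PF4V1 -0.33. CXCL2, which binds the receptor CXCR2 as CXCL8 does, had 6.28 with X-rays and 6.35 without at 41.5 °C, against 5.72 and 5.28 at 44 °C, a difference of 0.82 ± 0.14 (adjusted p = 0.00525). Its difference of 0.43 from 37 °C was not called (adjusted p = 0.156). CXCL11, an interferon-induced ligand of CXCR3, went the other way: it rose by 0.84 ± 0.16 at 44 °C against 37 °C (adjusted p = 0.0131) and had a difference of -0.59 between 41.5 °C and 44 °C (adjusted p = 0.0425).

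Of 20 chemokine receptors 0 were called between 41.5 °C and 37 °C (median 0.02, 2 at an unadjusted p under 0.05). CXCR4, the receptor of CXCL12, had levels of 4.12 with X-rays and 4.81 without at 41.5 °C, against 5.85 and 5.75 at 44 °C, a difference of -1.34 ± 0.18 (adjusted p = 0.00121). Its levels of 4.91 and 5.38 at 37 °C lay between, with -0.68 for 41.5 °C against 37 °C (adjusted p = 0.0785). ACKR3, a scavenging receptor for the same ligand, was higher at 41.5 °C than at 44 °C by 0.65 ± 0.15 (adjusted p = 0.0199). ACKR4 (0.19) and CX3CR1 (-0.25) were not called at 41.5 °C against 37 °C.

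Around IRAK2, 32 other genes of the interleukin-1 and Toll-like receptor pathway were measured. Between 41.5 °C and 37 °C, 1 rose and 0 fell (median 0.06). The rise was that of IL1RL1, the receptor ST2 of interleukin-33, which had 5.51 with X-rays and 5.05 without at 41.5 °C, against 4.41 and 4.24 at 37 °C (0.96 ± 0.16, adjusted p = 0.0116). It also rose at 44 °C, by 0.62 (adjusted p = 0.0486). PELI1, a ubiquitin ligase that acts on IRAK proteins, had 5.08 and 5.21 at 41.5 °C, against 6.10 and 6.16 at 44 °C, a difference of -0.98 ± 0.12 (adjusted p = 5.59e-04), and rose by 0.57 at 44 °C against 37 °C (adjusted p = 0.018). Its relative PELI2 had -0.68 between 41.5 °C and 44 °C (adjusted p = 0.0285). For 41.5 °C against 44 °C, TLR6, a receptor for bacterial lipopeptides, was higher by 0.82 (adjusted p = 0.0028) and TLR3, a receptor for double-stranded RNA, by 0.73 (adjusted p = 0.0238), and TLR6 fell by 0.53 at 44 °C against 37 °C (adjusted p = 0.0409). TLR4, the receptor of bacterial lipopolysaccharide, had 0.33 between 41.5 °C and 37 °C and was not called.

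Around IRF1, 18 other genes of interferon receptors, JAK-STAT signalling and the IRF family were measured, of which 0 rose and 1 fell at 41.5 °C against 37 °C (median -0.02). The fall was that of IRF2, which competes with IRF1 for the same DNA element: its levels were 6.65 with X-rays and 6.86 without at 41.5 °C, against 7.37 and 7.35 at 37 °C. It fell by 0.60 ± 0.10 (adjusted p = 0.0104), and by 0.45 ± 0.10 at 44 °C against 37 °C (adjusted p = 0.0246), so that IRF1 and IRF2 stood on opposite sides of 37 °C at both temperatures. SOCS3, a feedback inhibitor of JAK kinases, rose by 0.65 at 44 °C (adjusted p = 0.00626). IRF2BPL, on the list although it is not itself an IRF, rose there by 0.39 (adjusted p = 0.0372). SOCS1 had a difference of -1.01 ± 0.15 between 41.5 °C and 44 °C (adjusted p = 0.00221). Of 23 listed genes of antigen presentation and other IRF1 targets only 6 were measured, so most of this list could not be assessed. Among the 6 were WARS1 (0.29 for 41.5 °C against 37 °C), CD274 (0.07), IL7 (-0.06) and IL15 (-0.12). Of these 6, 0 were called in any heat comparison, with 1 or 2 at an unadjusted p under 0.05 in each.

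Of 10 other ligands of natural killer cells, 2 rose and 0 fell at 41.5 °C against 37 °C (median 0.15). NCR3LG1, the ligand B7-H6 of NKp30, had 7.06 with X-rays and 6.87 without at 41.5 °C, against 6.10 and 6.24 at 37 °C, a rise of 0.79 ± 0.11 (adjusted p = 0.0052), and it was higher than at 44 °C by 0.52 (adjusted p = 0.0133). MICA, the paralog of MICB, rose by 0.46 ± 0.10 (adjusted p = 0.0373), and its difference between 44 °C and 37 °C was 0.36 (adjusted p = 0.0697). PVR, a ligand of DNAM-1, was higher at 41.5 °C than at 44 °C by 0.41 (adjusted p = 0.012). ULBP2, a further NKG2D ligand, had -0.37 between 41.5 °C and 37 °C, and NECTIN2, a further DNAM-1 ligand, had -0.24, neither of them called.

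All 9 pathway calls between 41.5 °C and 37 °C were lost without the irradiated array, with moderation that ignored the trend and in a fit of all features, and 8 of them, all but that of MAP3K14, without the control. Of the 23 calls between 41.5 °C and 44 °C, 8 held whichever array was omitted: CXCL2, CXCR4, TLR6, PELI1, MAP3K14, NFKB2, NFKB1 and SOCS1. Of these, CXCL2 was lost in the fit of all features (adjusted p = 0.053). In all, 11 of the 23 were lost with moderation that ignored the trend and 16 in the fit of all features. Of the 10 calls between 44 °C and 37 °C, 0 held whichever array was omitted, 6 were lost without the trend and 8 in the fit of all features.

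The neighbours of the 6 genes on their chromosomes, taken as the nearest measured protein-coding genes on either side in the RefSeq order, were looked at in the same fit. Of 24 neighbours, 1 rose and 1 fell at 41.5 °C against 37 °C (8.33%, against 3.29% of all genes), namely MICA, beside MICB, and TM4SF20, beside CCL20 (-0.38, adjusted p = 0.0334), with a median of 0.00145. Between 41.5 °C and 44 °C 1 was called (4.17%, against 12.1% of all genes): DAW1, beside CCL20, was higher at 41.5 °C by 0.66 (adjusted p = 0.0133). CCL7 and CCL11 beside CCL2 had 0.46 and -0.17, and CXCL6 and PF4V1 beside CXCL8 had -0.09 and -0.33, none of them called.

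The heat treatment and the cell type were checked on known genes. The X-ray treatment was not, because its intended reference genes, CDKN1A and MDM2, were not among the genes used. HSPA1A, a heat-inducible HSP70, rose by 1.80 ± 0.08 at 41.5 °C and by 2.48 at 44 °C against 37 °C, and its signal is not separable from that of HSPA1B. Of 10 markers of lung epithelium and A549, 7 were measured. The mean levels of the keratins KRT18 and KRT8 and of EPCAM lay above 99.9%, 73.9% and 64.1% of genes, and those of SFTPB, NKX2-1, KRT19 and SFTPC above 46.8%, 37.0%, 31.0% and 30.9%. Of the leukocyte markers 5 of 10 were measured, with CD68, which is not confined to leukocytes, above 95.9% of genes, CD14 above 50.3%, NKG7 above 40.3%, CSF1R above 37.1% and LYZ above 10.0%. CD68 rose by 0.68 ± 0.08 at 44 °C against 37 °C (adjusted p = 9.08e-04). Between 41.5 °C and 44 °C differences of -0.56 for CD68 (adjusted p = 0.00221), -0.77 for CD14 (adjusted p = 0.00362) and, among the epithelial markers, -0.45 for EPCAM (adjusted p = 0.0249) were called. The summed level of the leukocyte markers was 25.9 to 26.8 at 37 °C, 26.2 to 26.7 at 41.5 °C and 27.4 to 27.7 at 44 °C, and its part in the results was not tested. The fibroblast markers measured (2 of 6) and the endothelial ones (3 of 5) had mean levels above 2.41% to 28.3% of genes.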

How the data were processed

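Total RNA (300 ng) of A549 cells was measured on Affymetrix arrays, 1 per group. Per the submitters' processing notes the authors used Affymetrix Expression Console 1.1 and RMA, and deposited log2 values, which were used unchanged. The genome build behind the probes was not found in the labels. Of 53617 features, 16098 carry 1 gene symbol in the platform annotation. The other 37519, without a symbol or with several, were left out of the main fit, so a gene named only on such features is absent. For the 779 genes with several features the one with the highest mean was used, leaving 14884 genes.

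An additive model of temperature (factor) and radiation covering the 6 arrays was fitted in R 4.3.3 by limma 3.58.1 (eBayes with intensity trend, 2 residual and 8.06 prior degrees of freedom), with 2 arrays per temperature and 3 per radiation state. P-values are two-sided and Benjamini-Hochberg adjusted over all genes, with a threshold of 0.05. The fit was tested on simulated data. An interaction, if present, adds to the residual. The labels do not say that arrays come from separate cultures, so p-values reflect array-to-array spread, possibly technical, and the number of arrays limits the precision. The median SE was 0.138 between temperatures and 0.113 for radiation.

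The 6 genes and the pathway lists were chosen with earlier results of these data known. Named besides the 6 are, from each list, the 2 highest and 2 lowest by 41.5 °C minus 37 °C and every called gene, the 3 nearest profiles of each of the 6, and reference and marker genes. Chromosomal neighbours (2 on each side) were added. Tried alternatives were moderation without trend, a filter on dim genes, 2 further scalings, the mean of a gene's features, a fit of all features, single pairs of arrays and leaving out each array.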

Additional observations from a re-analysis of the deposited data

Results flagged for a closer look

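In 15 flagged genes, both pairs of arrays moved one way at 41.5 °C and the opposite way at 44 °C, each against 37 °C. They are CCL2, CCL20 and those pathway genes that were also called between 41.5 °C and 44 °C. Genes named only as nearest profiles were not considered for the flag, and some of them, such as NAV3, moved likewise. Such opposite movement was seen in 13.4% of all 14884 genes and in 22 of the 149 pathway genes (14.8%). For CCL2 and CCL20 the difference between the effects, which equals the difference between 41.5 °C and 44 °C, was 2.44 and 1.27 on the log2 scale. It was not tested for this pair, since the genes were chosen by it.

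For the other 13 a limma call of the difference between the effects was a condition of the flag. Opposite movement and such a call together were seen in 8.72% of the 149 pathway genes, against 6.4% of all genes. The difference was positive for NFKB2 (0.89), TLR6 (0.82), CXCL2 (0.82), NFKB1 (0.76), TLR3 (0.73), CSF1 (0.65), TNIP1 (0.52) and PVR (0.41), which were higher at 41.5 °C and lower at 44 °C than at 37 °C in both pairs. It was negative for CXCR4 (-1.34), SOCS1 (-1.01), PELI1 (-0.98), PELI2 (-0.68) and PTGS2 (-0.46), which were lower at 41.5 °C and higher at 44 °C. Most of the single effects against 37 °C behind these values were not called, those that were being NFKB2 and NFKB1 at 41.5 °C and TLR6 and PELI1 at 44 °C. Some movements of single pairs were very small. PTGS2 moved by 0.0021 at 44 °C with X-rays and by -0.044 at 41.5 °C without, and its 41.5 °C and 37 °C arrays overlapped.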

How the results depend on the processing

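Of 338 values of the log2 differences of the 6 genes under the alternatives, 287 lay within 1 residual SD of the reported value and kept its sign. A further 6, all radiation differences of IRAK2 or IRF1, lay within 1 residual SD but had the opposite sign. In all, 13 had the opposite sign: those of CXCL8 for 44 °C against 37 °C, IRF1 for 41.5 °C against 44 °C, and the radiation differences of IRAK2, IRF1 and MICB, all given below. Many of the 338 values could not differ from the reported ones. The moderation, the filter on dim genes and the fit of all features do not alter a log2 difference. Neither does the mean of features for a gene with 1 feature, nor omitting an array at a temperature outside a heat comparison. Calls over all genes depended on the moderation: without the trend 9, 791 and 405 were called for 41.5 °C against 37 °C, 41.5 °C against 44 °C and 44 °C against 37 °C, and in a fit of all features 14, 636 and 379. For radiation 1 gene was called with the filter on dim genes, 1 with median centring and 1 with the mean of all features. The cause was not tested. Rescaling moved the split of calls: 41.5 °C against 37 °C had 325 higher and 164 lower, but 273 and 229 after quantile normalization. The split for 41.5 °C against 44 °C was 1076 and 729, but 1432 and 580 after centring, and that for 44 °C against 37 °C was 532 and 378, but 485 and 596 after quantile normalization and 467 and 538 after centring.

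With 1 array left out, 19 to 800 genes were called for 41.5 °C against 37 °C (19 without the irradiated array and 38 without the control), 1024 to 1299 for 41.5 °C against 44 °C, 263 to 1212 for 44 °C against 37 °C and 0 to 85 for radiation (85 without either 44 °C array). The difference between 41.5 °C and 37 °C was then 2.17 to 2.22 for CCL2, 0.75 to 0.97 for CCL20, 0.85 to 1.33 for CXCL8, 1.07 to 1.35 for IRAK2, 0.76 to 0.91 for IRF1 and 1.19 to 1.32 for MICB. Between 41.5 °C and 44 °C it was 1.16 to 1.39 for CCL20, 0.97 to 1.38 for CXCL8, 0.61 to 0.88 for IRAK2 and -0.0067 to 0.25 for IRF1. Between 44 °C and 37 °C it was -0.32 to 0.16 for CXCL8, 0.32 to 0.60 for IRAK2 and 0.58 to 0.84 for IRF1. The radiation difference was -0.43 to -0.30 for CCL20, -0.49 to -0.20 for CXCL8, -0.067 to 0.12 for IRAK2 (-0.067 without the control or the irradiated array) and -0.039 to 0.10 for IRF1 (-0.024 without the control or the irradiated array, -0.039 without either 41.5 °C array).

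Single pairs with X-rays and without gave 1.14 and 1.40 for CCL20 between 41.5 °C and 44 °C. For 41.5 °C against 37 °C they gave 0.80 and 1.39 for CXCL8 and 1.02 and 1.39 for IRAK2. For 44 °C against 37 °C they gave -0.27 and 0.10 for CXCL8 and 0.59 and 0.84 for IRF1, and for 41.5 °C against 44 °C 0.26 and -0.014 for IRF1. Radiation differences of single pairs were -0.53 at 41.5 °C and -0.27 at 44 °C for CCL20, -0.014 at 37 °C and -0.60 at 41.5 °C for CXCL8, 0.22 at 37 °C and -0.15 at 41.5 °C for IRAK2, -0.16 at 44 °C for IRF1 and -0.028 at 37 °C for MICB. With the mean of its 7 features MICB had 0.60 for 44 °C against 37 °C.

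Each group has 1 array, so there were no replicates to pair across groups. Radiation state was a term of the model, and single pairs of arrays are given above. CXCL8 is below the median level and has no value under the filter on dim genes. Leaving out an array leaves 1 residual degree of freedom and 1 array at that temperature, whose spread is taken from the rest. The adjusted p of CCL20 for radiation was 0.129 to 1.00 over the alternatives.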
